A study of Mus musculus with 9 samples.

Results

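The SLAM family of receptors and its SAP adaptors comprised 10 genes of the 48709 in the table. The choice was made by name from the receptor and adaptor families, with earlier results of these data known. The 10 were 7 receptor genes (Slamf1, Slamf6, Slamf7, Cd244a, Cd48, Cd84 and Ly9) and 3 adaptor genes (Sh2d1a, Sh2d1b1 and Sh2d1b2). All 10 were found, with Cd244a listed under its older symbol Cd244, and all 10 passed the filter on low values, an average of 1 TPM or more in some group. The study sequenced RNA of CD8+ T cells, the killer cells of the adaptive immune system, from mice in 9 libraries. The OVA/Citra group (3 libraries) had been given OVA peptide together with citraconate, the OVA group (3 libraries) had been given OVA peptide, and the CTRL group (3 libraries) had been left without the peptide. OVA peptide is a piece of chicken ovalbumin that serves as model antigen. Citraconate is a dicarboxylate and an isomer of the macrophage metabolite itaconate. No group had citraconate without peptide. The sources used here give no strain, age, dose or time, and 8 of the 9 library labels call the cells PAS-T cells without explaining the name. Whether replicates came from separate cultures or animals is not labelled. The p-values therefore reflect the spread between these libraries alone, which may be technical.

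SLAM receptors sit on the surface of blood cells and mostly bind the same receptor on a neighbouring cell. CD48, which has no signalling tail, is instead the ligand of 2B4 (the product of Cd244a) and, in mice, of CD2. The tails of the other receptors carry tyrosine motifs that bind the small SH2 adaptors SAP (Sh2d1a), EAT-2A (Sh2d1b1) and EAT-2B (Sh2d1b2). SAP brings in the kinase FYN and is the main adaptor of T cells, whereas the EAT-2 proteins are best known from natural killer cells. When no adaptor is bound, the same tails can recruit phosphatases such as SHP-1 and SHIP-1, so that the supply of adaptors bears on whether a SLAM receptor activates or restrains a cell.

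Values are in TPM, the transcripts of a gene as a share of all transcripts of its library, corrected for gene length, so that levels can be compared between genes. Reads assigned to genes, worked back from the table, numbered 14754470 to 17384330 per library. All 10 markers fixed for CD8 T cells averaged at least 1 TPM in every group, and their summed level was 6789 to 7035 TPM in OVA/Citra, 4033 to 4976 TPM in OVA and 7448 to 7849 TPM in CTRL. All 8 natural killer markers were in the table, and their sum was 61.2 to 68.5 TPM in OVA/Citra, 134 to 176 TPM in OVA and 10.9 to 13.6 TPM in CTRL, where Ncr1 was listed at 0 in every library. The sum of 10 B cell markers was 55.0 to 88.5 TPM in OVA/Citra, 25.2 to 31.9 TPM in OVA and 215 to 247 TPM in CTRL, nearly all of it Ighm. In OVA/Citra the B cell gene Ms4a1 was listed at 0. Of 12 myeloid and dendritic markers 11 were in the table, with sums of 19.8 to 29.1 TPM in OVA/Citra, 27.2 to 32.4 TPM in OVA and 14.6 to 18.7 TPM in CTRL. S100a8 and S100a9 were at 0 in every library. Cd14 had 5.89 to 9.73 TPM in OVA and 0 to 0.623 TPM in CTRL. Cd68 (12.1 to 14.0 and 4.02 to 8.11 TPM) and Ly6g (1.38 to 1.82 and 0 to 0.347 TPM) were higher in OVA too. Itgax (5.27 to 6.44 and 6.08 to 7.66 TPM) and Xcr1 (1.30 to 1.95 and 1.98 to 3.78 TPM) were not. The 4 CD4 T cell markers summed to 18.3 to 19.9, 19.6 to 21.4 and 53.9 to 60.8 TPM in OVA/Citra, OVA and CTRL, and the 4 platelet markers to under 1 TPM in each library. In bulk RNA a change in the number of cells that express a gene and a change in RNA per cell cannot be told apart.

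With OVA peptide the receptor and adaptor genes split: both EAT-2 genes and Cd244a rose, while Slamf6, Ly9, Cd48 and Slamf1 fell, and Slamf7, Cd84 and Sh2d1a were not called. The threshold for a call was an adjusted p of 0.05 in limma, fitted over all 11971 tested genes of the 9 libraries. That made 7 of 10 genes called for OVA against CTRL, beside 71.9% of all tested genes, so their number was near the background. Called higher were 3 members, against a background of 32.1%, and called lower were 4, against 39.8%. The OVA and CTRL libraries did not overlap for 7 members, beside 75.0% of tested genes. When citraconate was added to the peptide, Slamf1, Ly9, Slamf6 and Cd84 rose and Sh2d1b2, Sh2d1b1, Cd244a and Sh2d1a fell. The 8 members called for OVA/Citra against OVA compare with 59.0% of tested genes, the 4 higher with 37.8% and the 4 lower with 21.2%. The libraries did not overlap for 8 members, beside 66.1% of tested genes. For OVA/Citra against CTRL 8 members were called, beside 59.4% of tested genes. Of these, Sh2d1b2, Sh2d1b1, Cd244a and Cd84 were higher (background 33.1%), and Cd48, Slamf6, Ly9 and Sh2d1a were lower (background 26.3%). The OVA/Citra and CTRL libraries did not overlap for 9 members, beside 67.4% of tested genes.

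The median tested gene differed by a log2 of 0.12 between OVA/Citra and OVA, by -0.08 between OVA and CTRL and by 0.04 between OVA/Citra and CTRL. With each library scaled by its median ratio, the share of increases among all genes called for OVA/Citra against OVA went down to 49.1%, from 64.0% without that scaling. All log2 differences below are therefore given relative to the median tested gene, on a scale of log2(TPM + 1) that understates the change of low genes. Their 95% limits are shifted in the same way, but the adjusted p-values and the calls belong to the differences before that shift. The median of the 10 members on this scale was 0.01 for OVA against CTRL, -0.19 for OVA/Citra against OVA and 0.14 for OVA/Citra against CTRL, where the median of all genes is 0 by construction. The comparisons share libraries, so their values are set side by side and not correlated.

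**Figure D1:**
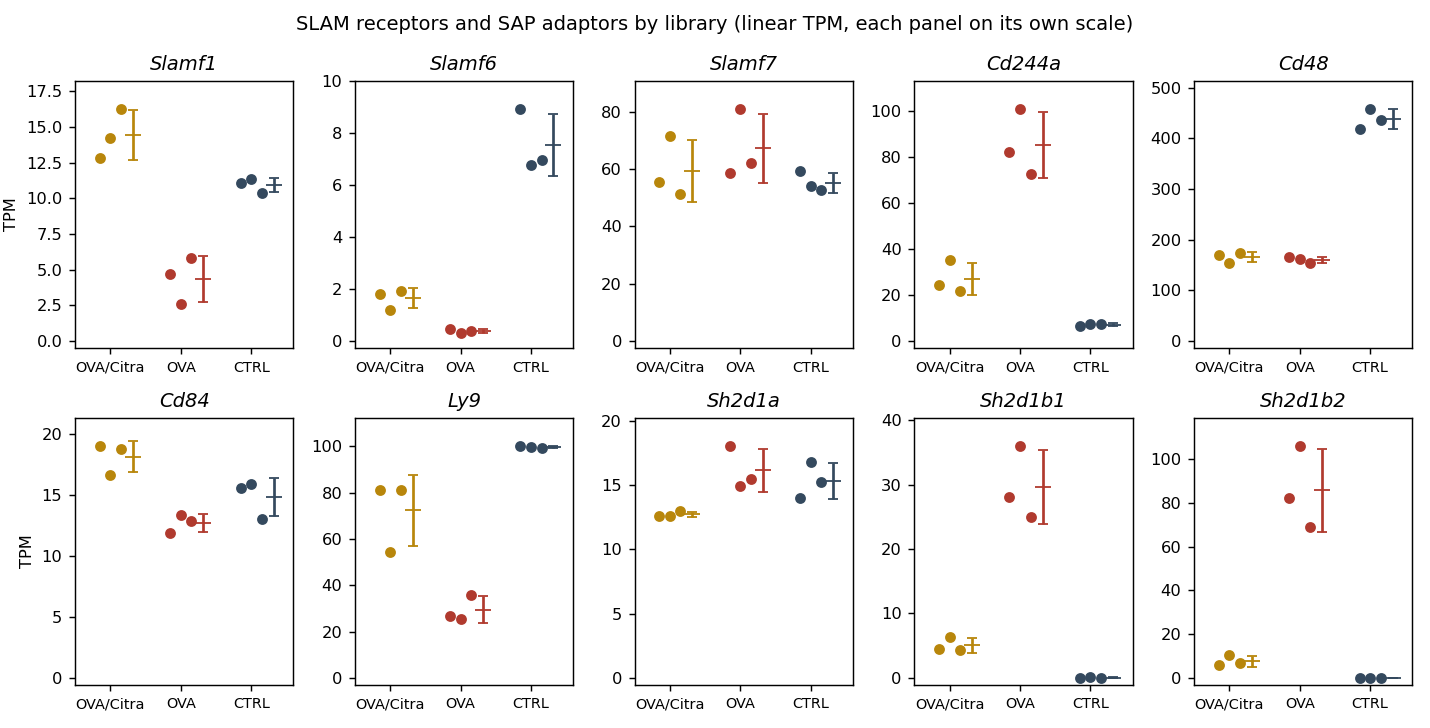
TPM (linear axis, each panel on its own scale) of the 10 genes in each of the 9 libraries, with points for libraries and a bar for the mean ± SD of 3. Sh2d1b1, Sh2d1b2 and Cd244a are highest in OVA, Slamf6, Ly9 and Cd48 are highest in CTRL, and Slamf1 and Cd84 have their highest mean in OVA/Citra.

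**Figure D2:**
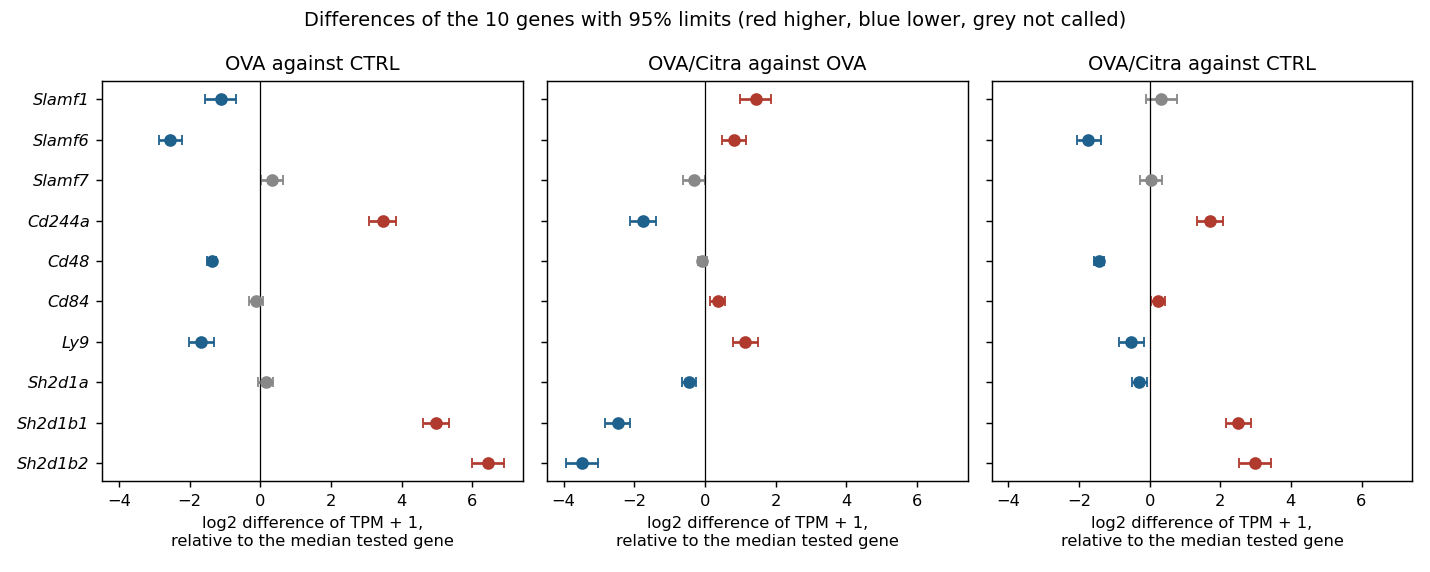
Log2 differences of TPM + 1 relative to the median tested gene, with 95% limits from limma, for the 10 genes in the 3 comparisons. For OVA against CTRL the values run from -2.55 for Slamf6 to 6.44 for Sh2d1b2, and for OVA/Citra against OVA from -3.48 for Sh2d1b2 to 1.44 for Slamf1.

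The EAT-2 adaptors showed the largest differences of the 10 genes. Sh2d1b1 and Sh2d1b2 both lie on chromosome 1 and are close copies: 2195 of 2441 aligned bases of their longest coding transcripts were the same (89.9%, GENCODE M21), and 18.3% of the 31-base words of Sh2d1b1 also occur in Sh2d1b2. Reads that lie wholly within such shared stretches cannot be assigned to either copy by sequence. How they were handled is not stated, so the split between the copies is uncertain, and their sum may be affected too. The sum is given beside the single genes. The 250 bases before each start are shown because the copies moved together and these stretches are also alike, with 171 of 189 aligned bases the same (90.5%). Both are on the plus strand of the GRCm38.p6 build in RefSeq, Sh2d1b1 at chr1:170277068-170277317 and Sh2d1b2 at chr1:170232621-170232870. Capitals mark TGTGGT, the core motif of RUNX factors, which both hold on the opposite strand.
Sh2d1b1: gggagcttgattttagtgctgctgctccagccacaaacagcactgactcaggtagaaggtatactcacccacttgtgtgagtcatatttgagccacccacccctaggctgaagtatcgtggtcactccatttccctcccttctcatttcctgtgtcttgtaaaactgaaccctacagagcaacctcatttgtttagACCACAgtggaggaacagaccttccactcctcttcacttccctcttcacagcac
Sh2d1b2: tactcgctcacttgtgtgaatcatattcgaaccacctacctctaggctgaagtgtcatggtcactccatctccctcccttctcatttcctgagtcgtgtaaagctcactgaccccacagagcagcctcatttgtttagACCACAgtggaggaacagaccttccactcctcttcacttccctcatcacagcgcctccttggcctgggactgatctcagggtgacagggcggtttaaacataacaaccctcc
Of the members, 8 have such a window in the RefSeq table (all but Ly9 and Sh2d1a). TGTGGT, searched on both strands, was in 4 of the 8 (Sh2d1b1, Sh2d1b2, Cd48 and Cd84) and in 14.0% of all 32851 windows. The EAT-2 windows are near copies, so their matches are not independent and the count cannot be set against that share. The T-box site GGTGTGA was in 1 of the 8 and 3.33% of all windows, and the TCF/LEF core CTTTGA in 1 of the 8 and 13.8%. Both matches were in the window of Cd48, where GGTGTGA overlaps TGTGGT. A match describes the letters of these windows and not the binding of a factor.

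Sh2d1b2, which encodes EAT-2B, stood at 5.70, 10.5 and 6.57 TPM in OVA/Citra replicates 1 to 3, at 82.2, 106 and 68.9 TPM in OVA and at 0, 0 and 0.114 TPM in CTRL. The 3 groups did not overlap. CTRL held 2 reads of the gene in all 3 libraries together, OVA 4306 and OVA/Citra 353. Per read of depth, Sh2d1b2 was 2103-fold higher in OVA than in CTRL, with a 95% counting interval of 582 to 17370, and 183-fold higher in OVA/Citra than in CTRL, with an interval of 50.4 to 1519. These intervals cover counting error only. The gene rose with OVA (log2 6.44 ± 0.204, SE; adjusted p = 6.83e-09, limma) and was 11.3-fold lower in OVA/Citra than in OVA (log2 -3.48 ± 0.204; adjusted p = 5.43e-06, limma).

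Sh2d1b1, which encodes EAT-2A, had 4.45, 6.36 and 4.32 TPM in OVA/Citra, 28.1, 36.1 and 24.9 TPM in OVA and 0, 0.0642 and 0 TPM in CTRL. It followed the same order of groups, again without overlap, from 235 reads in OVA/Citra, 1493 in OVA and 1 in CTRL. Per read of depth it was 1458-fold higher in OVA than in CTRL (counting interval 261 to 57640) and 244-fold higher in OVA/Citra than in CTRL (43.4 to 9676). It rose with OVA (log2 4.97 ± 0.160; adjusted p = 8.02e-09, limma) and was 5.89-fold lower in OVA/Citra than in OVA (log2 -2.47 ± 0.160; adjusted p = 6.61e-06, limma). Both EAT-2 genes passed the filter on low values only through the groups with peptide, so that a difference from CTRL was fixed by that filter. They were also called with no filter. Fitted log2 differences from CTRL depend on the 1 added to each TPM value and are not bounds.

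Sh2d1a, which encodes SAP, was the adaptor gene not called between OVA and CTRL. It had 12.6, 12.6 and 12.9 TPM in OVA/Citra, 18.1, 14.9 and 15.4 TPM in OVA and 14.0, 16.8 and 15.2 TPM in CTRL. OVA and CTRL overlapped (log2 0.15, 95% limits -0.06 to 0.35; adjusted p = 0.520, limma). OVA/Citra lay below both other groups, at 12.7 ± 0.204 TPM, against 16.1 ± 1.69 TPM in OVA and 15.3 ± 1.40 TPM in CTRL (SD, n = 3). OVA/Citra was 1.27-fold below OVA (log2 -0.44 ± 0.092; adjusted p = 0.0130, limma), and was not called without OVA replicate 1 (adjusted p = 0.0548). Against CTRL the value was a log2 of -0.29 (adjusted p = 0.0382). That call was lost without CTRL replicate 2 (adjusted p = 0.146) or 3 (0.0754), without OVA/Citra replicate 1 (0.0863), 2 (0.0818) or 3 (0.0697), with granzyme genes left out (0.0694), with no filter (0.0547) and with the replicate numbers as a block (0.0602), all with limma.

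Added together, the EAT-2 genes reached 10.2, 16.8 and 10.9 TPM in OVA/Citra replicates 1 to 3, 110, 142 and 93.8 TPM in OVA and 0, 0.0642 and 0.114 TPM in CTRL. Within each library, the ratio of this sum to Sh2d1a was 0.806, 1.34 and 0.841 in OVA/Citra, 6.11, 9.56 and 6.08 in OVA, and 0, 0.00382 and 0.00747 in CTRL. EAT-2 transcripts thus outnumbered SAP transcripts in the OVA libraries, were close to them in OVA/Citra and were at or near 0 in CTRL. Most natural killer markers moved with the EAT-2 genes. With OVA 7 of 8 rose, beside 32.1% of all tested genes, while Itga2 overlapped between OVA and CTRL. In OVA/Citra 7 of 8 were lower than in OVA, beside 21.2% of all tested genes. Klri2 went the other way, with 14.3 to 18.5 TPM in OVA/Citra and 8.06 to 13.9 TPM in OVA. The sums are given above, and the part of these markers in the result was not tested. In CTRL only 3 of the 8 averaged 1 TPM or more, and the others passed the filter through the groups with peptide, which fixed their difference from CTRL. The receptor Ncr1, a defining marker of natural killer cells, had 3.57 to 5.04 TPM in OVA/Citra, 23.7 to 31.1 TPM in OVA and 0 TPM in CTRL.

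**Figure D3:**
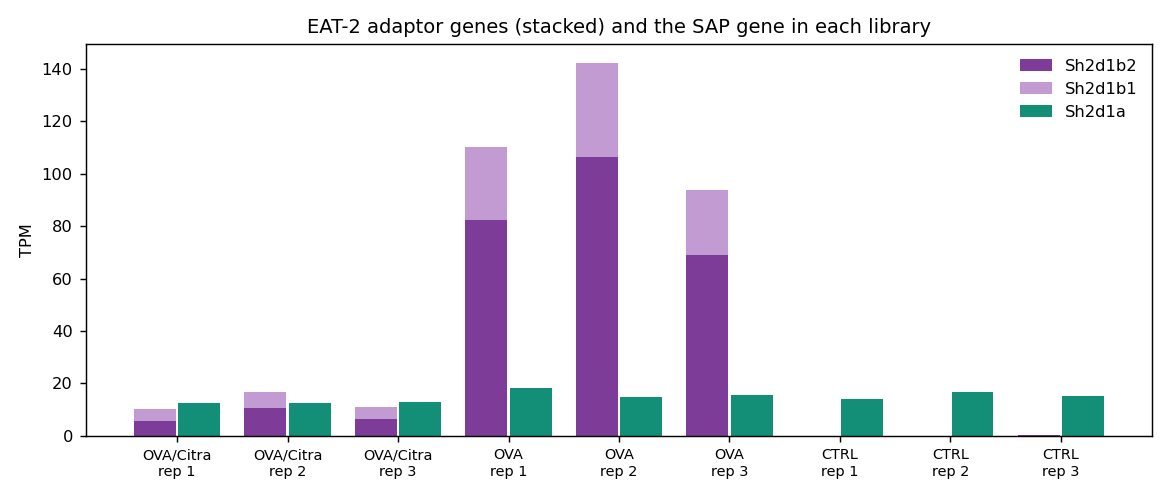
TPM of Sh2d1b2 and Sh2d1b1 (stacked) and of Sh2d1a in each library. The EAT-2 sum is 93.8 to 142 TPM in OVA, above Sh2d1a in every OVA library, and at most 0.114 TPM in CTRL.

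Among the receptors, Cd244a and its ligand gene Cd48 went in opposite directions with OVA. Cd244a, which encodes the activating or inhibitory receptor 2B4, had 24.2, 35.1 and 21.8 TPM in OVA/Citra, 82.0, 101 and 72.5 TPM in OVA and 6.49, 7.60 and 7.40 TPM in CTRL. No library of any group reached the range of another. Cd244a was 11.9-fold higher in OVA than in CTRL (log2 3.47 ± 0.167; adjusted p = 9.11e-08, limma), and 3.15-fold lower in OVA/Citra than in OVA (log2 -1.76 ± 0.167; adjusted p = 3.62e-05, limma). It was still 3.78-fold higher in OVA/Citra than in CTRL (log2 1.72; adjusted p = 1.24e-05, limma). Most natural killer markers moved with Cd244a in the same way as with the EAT-2 genes, and their part was not tested.

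Cd48 had 169, 155 and 174 TPM in OVA/Citra, 166, 162 and 153 TPM in OVA and 419, 458 and 437 TPM in CTRL. The CTRL libraries stood apart and the groups with peptide overlapped. Cd48 was 2.73-fold lower in OVA than in CTRL (log2 -1.37 ± 0.059; adjusted p = 2.81e-08, limma) and 2.64-fold lower in OVA/Citra than in CTRL (log2 -1.43 ± 0.059; adjusted p = 5.48e-08, limma). Between OVA/Citra and OVA it was not called (log2 -0.08, 95% limits -0.21 to 0.06; adjusted p = 0.501, limma). It was the most abundant of the 10 genes in every group. CD2, the other partner of CD48 in mice, had a transcript level of 258 ± 14.6 TPM in OVA/Citra, 127 ± 49.3 TPM in OVA and 471 ± 21.9 TPM in CTRL (SD, n = 3). Cd2 fell with OVA (log2 -1.89; adjusted p = 2.49e-05, limma) and rose with citraconate (log2 0.97; adjusted p = 0.00212, limma).

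Of the receptors that bind themselves, Ly9, Slamf1 and Slamf6 fell with OVA and rose with citraconate. Ly9 (CD229) had 81.1, 54.5 and 81.3 TPM in OVA/Citra, 26.8, 25.4 and 36.0 TPM in OVA and 100.3, 99.8 and 99.3 TPM in CTRL. The CTRL libraries lay within 1 TPM of their mean, whereas OVA/Citra replicate 2 lay well below its partners. The groups did not overlap. Ly9 was 3.40-fold lower in OVA than in CTRL (log2 -1.67 ± 0.159; adjusted p = 4.62e-06, limma) and 2.46-fold higher in OVA/Citra than in OVA (log2 1.14 ± 0.159; adjusted p = 1.09e-04, limma). OVA/Citra was below CTRL (log2 -0.52; adjusted p = 0.0237, limma). This call was lost without any 1 of the CTRL replicates (adjusted p = 0.0592, 0.0570 and 0.0589), without OVA/Citra replicate 2 (0.0696) and with no filter (0.0512), all with limma.

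Slamf1, which encodes CD150, the receptor that gave the family its name, had 12.8, 14.2 and 16.3 TPM in OVA/Citra, 4.68, 2.61 and 5.82 TPM in OVA and 11.1, 11.3 and 10.4 TPM in CTRL. Every OVA library was below every other library. Slamf1 was 2.50-fold lower in OVA than in CTRL (log2 -1.12 ± 0.197; adjusted p = 3.01e-04, limma) and 3.30-fold higher in OVA/Citra than in OVA (log2 1.44 ± 0.197; adjusted p = 1.09e-04, limma). The OVA/Citra libraries were also above the CTRL libraries, but not past the test (log2 0.33, 95% limits -0.11 to 0.77; adjusted p = 0.136, limma). It was called higher when only the 2 groups were fitted (adjusted p = 0.0114) or OVA replicate 2 was left out (0.0139), again with limma.

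Slamf6, which encodes Ly108, a surface marker of stem-like CD8 T cells, was the least abundant receptor in the groups with peptide. It had 1.83, 1.21 and 1.93 TPM in OVA/Citra, 0.457, 0.297 and 0.373 TPM in OVA and 8.94, 6.78 and 6.95 TPM in CTRL. These values rest on 53 to 92 reads per library in OVA/Citra, 14 to 22 in OVA and 306 to 381 in CTRL. The groups did not overlap. By means Slamf6 was 4.42-fold higher in OVA/Citra than in OVA (log2 0.82 ± 0.149; adjusted p = 4.29e-04, limma), yet 4.56-fold lower in OVA/Citra than in CTRL (log2 -1.73 ± 0.149; adjusted p = 7.48e-06, limma). OVA was 20.1-fold below CTRL (log2 -2.55 ± 0.149; adjusted p = 2.18e-07, limma). With OVA under 1 TPM, Slamf6 passed the filter only through the other groups, where it was higher.

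Cd84 and Slamf7 varied least among the receptors. Cd84 had 19.0, 16.6 and 18.7 TPM in OVA/Citra, 11.9, 13.3 and 12.9 TPM in OVA and 15.5, 15.9 and 13.0 TPM in CTRL. OVA/Citra was above OVA without overlap (1.43-fold, log2 0.36 ± 0.093; adjusted p = 0.00143, limma). OVA and CTRL overlapped (log2 -0.13, 95% limits -0.33 to 0.08; adjusted p = 0.0709, limma), although OVA was called lower without CTRL replicate 3 (adjusted p = 0.0174, limma). Against CTRL, OVA/Citra was higher (log2 0.24; adjusted p = 0.0261, limma). That call was lost without CTRL replicate 3 (adjusted p = 0.0943) or OVA/Citra replicate 1 (0.0848) or 3 (0.0800), with limma.

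Slamf7, which encodes the receptor CRACC of activated lymphocytes, had 55.5, 71.6 and 51.1 TPM in OVA/Citra, 58.5, 81.0 and 62.0 TPM in OVA and 59.2, 54.1 and 52.5 TPM in CTRL. All 3 groups overlapped, and none of the 3 comparisons was called (adjusted p = 0.110 for OVA against CTRL, 0.300 for OVA/Citra against OVA and 0.600 for OVA/Citra against CTRL, limma). Before the shift by the median gene, which these p-values refer to, the 95% limits were -0.04 to 0.57, -0.48 to 0.13 and -0.22 to 0.40 in the same order. Relative to the median gene they were 0.03 to 0.65, -0.61 to 0.01 and -0.26 to 0.36. OVA was called higher than CTRL with granzyme genes left out (adjusted p = 0.0375), with voom on recovered reads (0.0386) and with the replicate numbers as a block (0.0477), all with limma. In both groups with peptide, replicate 2 had the highest Slamf7.

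Replicate 2 also held the highest Cd244a, Sh2d1b1 and Sh2d1b2 and the lowest Slamf6 and Ly9 of its group, in OVA/Citra and in OVA alike. In each of these groups replicate 2 also had the lowest sum of CD8 T cell markers (6789 TPM in OVA/Citra and 4033 TPM in OVA) and the highest sum of natural killer markers (68.5 and 176 TPM). The 8 calls for OVA/Citra against OVA were made without OVA/Citra replicate 2 and without OVA replicate 2 as well, and the 7 calls for OVA against CTRL without OVA replicate 2. Most CD8 T cell markers moved with Ly9, Slamf1 and Slamf6. With OVA 9 of 10 fell, beside 39.8% of all tested genes. In OVA/Citra 9 of 10 were higher than in OVA, beside 37.8% of all tested genes, while Thy1 overlapped between all 3 groups. For OVA/Citra against CTRL 2 of these markers were called higher (background 33.1%), 2 lower (background 26.3%) and 6 not called. In that comparison Slamf6 and Ly9 were called lower and Slamf1 was not called. The part of these markers in the result was not tested.

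The summed level of the 7 receptor genes was 348 to 365 TPM in OVA/Citra, 343 to 385.5 TPM in OVA and 620.5 to 654 TPM in CTRL. Without Cd48 the sums overlapped, at 191 to 194.5 TPM in OVA/Citra, 184 to 223.5 TPM in OVA and 189.6 to 201.5 TPM in CTRL. The make-up of all 7 receptors, with Cd48 included, differed as well. Cd48 held 44.4% to 47.7% of receptor transcripts in OVA/Citra, 42.0% to 47.4% in OVA and 67.5% to 70.1% in CTRL. A smaller share of Cd48 raises the shares of the other genes, so these need not follow TPM. Cd244a held 5.98% to 10.1% of receptor transcripts in OVA/Citra, 21.2% to 26.2% in OVA and 1.05% to 1.18% in CTRL. Ly9 held 15.7% to 22.3% in OVA/Citra, 6.59% to 10.5% in OVA and 15.3% to 16.2% in CTRL. Slamf1 held 3.53% to 4.46%, 0.678% to 1.70% and 1.66% to 1.79% in OVA/Citra, OVA and CTRL.

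**Figure D4:**
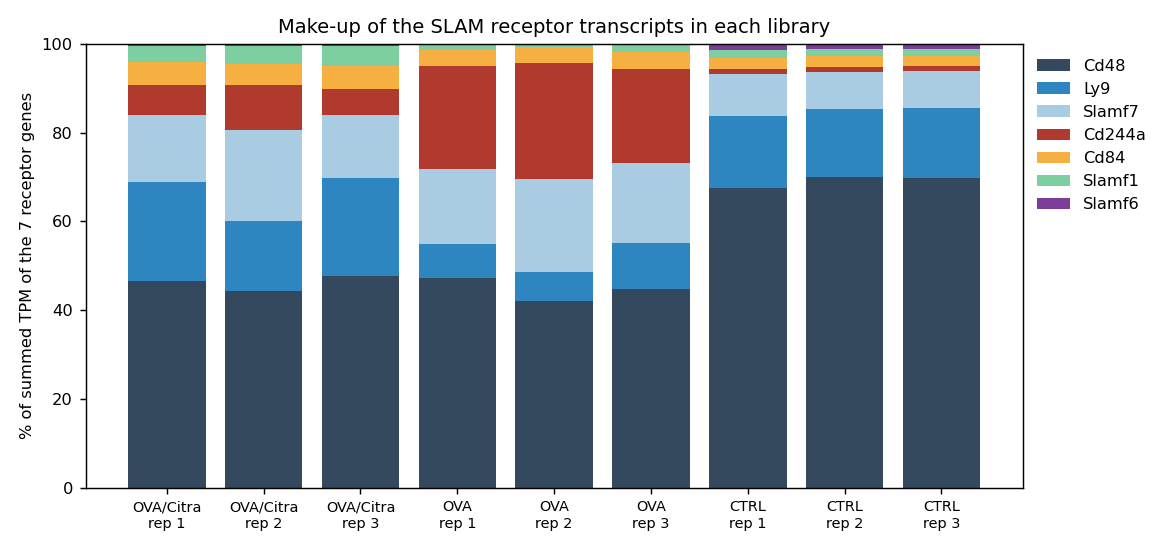
Share of the summed TPM of the 7 receptor genes held by each gene, in %, for each library. Cd48 holds the largest share in every library, and Cd244a holds 21.2% to 26.2% in OVA but at most 1.18% in CTRL.

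By level, the order of the 10 genes in OVA/Citra was Cd48, Ly9, Slamf7, Cd244a, Cd84, Slamf1, Sh2d1a, Sh2d1b2, Sh2d1b1 and Slamf6. Neighbours whose libraries overlapped were Ly9 with Slamf7, Slamf1 with Sh2d1a, and Sh2d1b2 with Sh2d1b1. In OVA it was Cd48, Sh2d1b2, Cd244a, Slamf7, Sh2d1b1, Ly9, Sh2d1a, Cd84, Slamf1 and Slamf6, with overlap among Sh2d1b2, Cd244a and Slamf7 and between Sh2d1b1 and Ly9. In CTRL it was Cd48, Ly9, Slamf7, Sh2d1a, Cd84, Slamf1, Slamf6, Cd244a, Sh2d1b2 and Sh2d1b1, with overlap between Sh2d1a and Cd84, Slamf6 and Cd244a, and the EAT-2 genes.

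A list of 30 partners and downstream genes of these receptors was read in the same libraries, and 27 of them passed the filter. With OVA 8 rose, 14 fell and 5 were not called (median log2 -0.13), where 32.1% of all tested genes were called higher and 39.8% lower. With granzyme genes left out of the libraries 9 rose and 10 fell, where 37.8% of all tested genes were called higher and 34.4% lower. Fgr, which encodes a kinase of the SRC family used by myeloid and natural killer cells, rose most, with 16.7 ± 3.74 TPM in OVA and 0.472 ± 0.0896 TPM in CTRL (log2 3.65; adjusted p = 4.70e-08, limma). Fgr passed the filter on low values only through the groups with peptide, so that a difference from CTRL was fixed by that filter. Plcg2, which encodes a phospholipase C of B cells and natural killer cells, rose to 142 ± 20.1 TPM in OVA, against 39.9 ± 2.24 TPM in CTRL (log2 1.88; adjusted p = 3.08e-06). Its T cell relative Plcg1 fell to 6.55 ± 2.995 TPM in OVA, against 69.5 ± 2.79 TPM in CTRL (log2 -3.23; adjusted p = 1.69e-06). Also called higher were Cblb, a ubiquitin ligase that restrains T cell activation (log2 1.85), Sh3bp2, an adaptor that binds 2B4 in human cells (1.55), and Arhgef7, whose product beta-PIX binds SAP (1.01). Among genes called lower were Prkcq, which encodes protein kinase C theta (-1.60), Lat, the scaffold of T cell receptor signalling (-1.55), and Csk, the inhibitor of SRC kinases (-0.76).

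For OVA/Citra against OVA, 15 of these genes rose, 8 fell and 4 were not called (median log2 0.10), where 37.8% of all tested genes were called higher and 21.2% lower. After median-of-ratios scaling 13 rose and 10 fell, where 29.0% of all tested genes were called higher and 30.1% lower. Fgr was lower, at 3.49 ± 0.613 TPM in OVA/Citra and 16.7 ± 3.74 TPM in OVA (log2 -2.09; adjusted p = 1.18e-05, limma). Plcg2 was lower too, at 46.1 ± 12.0 TPM in OVA/Citra and 142 ± 20.1 TPM in OVA (log2 -1.75; adjusted p = 2.50e-05). Cblb (log2 -0.58), Dok2, an adaptor that damps RAS signalling (-0.50), and Arhgef7 (-0.62) also fell. Lck, the kinase of the T cell receptor, rose to 546 ± 49.4 TPM in OVA/Citra, against 253 ± 72.8 TPM in OVA (log2 1.03; adjusted p = 3.53e-04). Fyn, which encodes the kinase that SAP recruits, rose modestly, to 129 ± 7.97 TPM in OVA/Citra, against 96.0 ± 1.96 TPM in OVA (log2 0.30; adjusted p = 1.37e-04). Fyn had 97.4 ± 3.26 TPM in CTRL and was not called between OVA and CTRL (adjusted p = 0.756). Lat (log2 0.96), Dok1 (0.57) and Prkcq (0.36) were also called higher. Against CTRL, OVA/Citra had 10 list genes higher and 8 lower, or 8 and 11 after median-of-ratios scaling. Of all tested genes, 33.1% were called higher and 26.3% lower without that scaling, and 30.1% and 29.2% with it. Of the other family members in the list, Slamf9 was listed at 0 in all libraries, and Slamf8 was at 0 in all but OVA replicates 2 and 3, where it stood at 0.0941 and 0.0871 TPM.

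**Figure D5:**
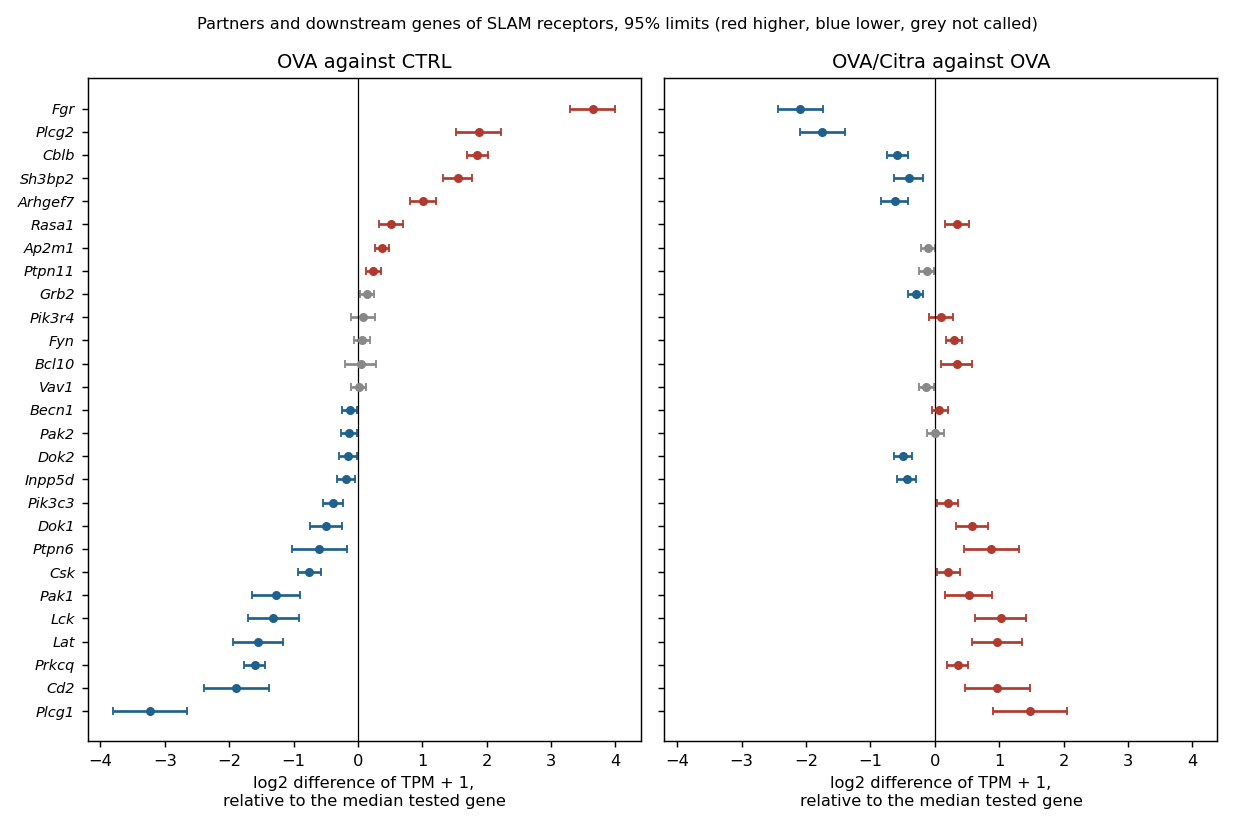
Log2 differences of TPM + 1 relative to the median tested gene, with 95% limits from limma, for the 27 tested partner and downstream genes, ordered by OVA against CTRL. Fgr lies highest in that comparison (3.65) and lowest for OVA/Citra against OVA (-2.09), and Plcg1 lies lowest in the first (-3.23) and highest in the second (1.48).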

How the data were processed

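RNA of 9 CD8+ T cell libraries was measured, 3 per group by their titles. The authors deposited 1 table of TPM with gene symbols. Its name says FPKM, but every column adds up to 1000000. The submitters' processing notes name Trim Galore (version 0.5.0), Salmon and GRCm39; no annotation is named. Per the labels' protocols, RNA was extracted with an RNeasy kit and sequenced on a NextSeq instrument. That text calls the cells of OVA/Citra replicate 1 OVA-stimulated T cells, unlike the other 8.

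On log2(TPM + 1), 11971 genes that averaged 1 TPM or more in some group were fitted together in limma 3.58.1 (R 4.3.3, eBayes with trend). P-values are two-sided and Benjamini-Hochberg adjusted over all tested genes of a comparison. Whole reads were worked back from the TPM for all 16734 genes above 0 in 2 or more libraries, within 0.0001 reads or 3e-08 of the count. They give the depth and 1 alternative with voom. The read recovery and the fit were tested on simulated data. For the fit few genes were changed, unlike the broad changes called here, so that setting was not tested. Members and gene lists were chosen with earlier results of these data known. The text names all members and, of the partner genes reaching 5 TPM, the 5 with the smallest adjusted p in each direction for OVA against CTRL and OVA/Citra against OVA. In all, 21 alternatives were run and kept.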

Additional observations from a re-analysis of the deposited data

How the results depend on the processing

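Of 30 member results (10 genes in 3 comparisons), 20 kept their direction and their call in every alternative run for them. These were 21, or 20 for Sh2d1b2, which has no value of its own where the EAT-2 genes are summed into 1. Log2 values here are not adjusted for the median gene. Cd48 for OVA/Citra against OVA, not called, had a log2 of 0.05 and turned negative with granzyme genes left out (log2 -0.02), with voom on recovered reads (-0.08) and after median-of-ratios scaling (-0.09). As single libraries were left out, Sh2d1a for OVA against CTRL (log2 0.07 with all libraries) ranged from -0.01 (without OVA replicate 1) to 0.13, and Slamf7 for OVA/Citra against CTRL (0.09 with all libraries) from -0.05 (without OVA/Citra replicate 2) to 0.19, both uncalled. The count of 4 members lower in OVA/Citra than in CTRL became 2 with no filter on low values and ranged from 2 to 4 as single libraries were left out. The calls lost were those of Ly9 and Sh2d1a, which had an adjusted p of 0.0237 and 0.0382 with the filter and all libraries (limma). All other counts of members or partner genes stayed within 1.5 times. The voom fit was chosen after seeing the data. It replaced a planned version with TMM scaling, which was run once, then dropped, and is not counted among the 21 alternatives. The voom fit rests on reads worked back from TPM as well, since the table holds no counts.

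Whether the same replicate number pairs libraries is not labelled. Deviations from the group means of same-numbered libraries correlated at -0.0121 to 0.304, and those of differently numbered libraries at -0.254 to 0.168. Not every library was most like its own number. Replicate 2 was so in every group: OVA with OVA/Citra correlated at 0.304, CTRL with OVA/Citra at 0.103 and CTRL with OVA at 0.0813. The source of this likeness was not tested. With the replicate numbers as a block, the members called were 4 higher and 4 lower for OVA against CTRL, 4 and 4 for OVA/Citra against OVA, and 4 and 3 for OVA/Citra against CTRL. EAT-2 genes in CTRL rest on 3 reads in all, and Slamf6 in OVA on 55.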

Other observations

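For each member the 2 genes with the most similar pattern were sought among 10370 tested protein-coding genes, by the root mean square difference of log2(TPM + 1) over the 9 libraries after centring each gene. Sh2d1b1 was nearest to Ncr1 (difference 0.102) and Fcrl6 (0.108), and Sh2d1b2 to Dsc2 (0.179) and Tmsb15a (0.194). Cd244a was nearest to C1qtnf6 (0.095) and Ctbp2 (0.126), Slamf6 to Spock2 (0.114) and Cmpk2 (0.131), and Cd48 to Tob1 (0.103) and Klf11 (0.108). Ly9 was nearest to Egln1 (0.086) and Bnip3l (0.088), and Slamf1 to Stk38l (0.115) and Myo1c (0.116). Cd84 was nearest to C2cd3 (0.050) and Dhdds (0.052), Slamf7 to Plk3 and Irak2 (0.079 each), and Sh2d1a to Leng1 (0.068) and Tpgs2 (0.081). As a scale, the members' own spread over the libraries by the same measure was 0.16 for Sh2d1a and 2.61 for Sh2d1b2. The 1 added to TPM compresses low values, so genes near by this measure need not share fold changes. Spock2 had 0.0279 TPM in OVA and 5.73 TPM in CTRL, beside 0.376 and 7.56 TPM for Slamf6.

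C1qtnf6 had 52.4 ± 11.5 TPM in OVA/Citra, 176 ± 29.9 TPM in OVA and 16.7 ± 0.707 TPM in CTRL (SD, n = 3). Fcrl6 had 5.63 ± 0.631 TPM in OVA/Citra and 31.2 ± 5.14 TPM in OVA and was listed at 0 in CTRL. Egln1, an oxygen sensor, had 159 ± 25.2 TPM in OVA/Citra, 67.7 ± 8.66 TPM in OVA and 216 ± 10.6 TPM in CTRL.

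In RefSeq's GRCm38.p6 assembly 9 of the 10 members lie on chromosome 1, in the order Sh2d1b2, Sh2d1b1, Cd244a, Ly9, Slamf7, Cd48, Slamf1, Cd84 and Slamf6, and Sh2d1a lies on chromosome X. The first 3 members in this order were all highest in OVA, and Ly9, which follows them, was lowest in OVA. Genes between the EAT-2 pair and Cd244a were not examined. No other gene between Cd244a and Slamf6 passed the filter on low values, so the stretch held 7 tested genes, the receptors themselves.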
